A study of Rattus norvegicus with 16 samples.

Results

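Antioxidant and metallothionein genes were followed in the rat intervertebral disc (IVD) after needle puncture. The 9 genes were chosen by name, namely Hmox1, Nqo1, Gpx2, Gpx3, Sod2, Sod3, Txnrd1, Mt1 and Mt2A, out of 14930 genes listed in any of the files, and all 9 had values in all 16 libraries. The animals were 8 male Sprague-Dawley rats, 8 weeks old at surgery, with no genetic change. In each rat the L4-5 and L5-6 discs received a single stab with a needle and were pooled as the lumbar disc puncture library (LDP), and the unpunctured L2-3 and L3-4 discs of the same rat were pooled as the control library (CON). Rats 1 to 4 were taken 2 weeks after surgery and rats 5 to 8 at 8 weeks, which gave 4 groups of 4 libraries. RNA of single cells was counted at its 3′ end on the 10x Genomics platform. Punctured and control discs lay at different lumbar levels, and the 2 times differed in age and in animals, so that neither puncture and level nor time and age can be told apart.

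Reactive oxygen species are cleared in steps. Superoxide dismutases turn superoxide into hydrogen peroxide, glutathione peroxidases reduce peroxides with glutathione, and thioredoxin reductase keeps thioredoxin in its reduced form. Nqo1, Txnrd1, Gpx2 and Hmox1 are known targets of the transcription factor NRF2, and metallothioneins are small cysteine-rich proteins that bind zinc and copper and are induced by metals and glucocorticoids. Disc cells live with little oxygen and few vessels, and oxidative stress is a known feature of disc degeneration.

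The files held 149272 cells, of which 127077 carried the class of disc cells (IVD). A library held between 17759809 and 85025591 UMIs (unique molecular identifiers, each a counted RNA molecule), and the median IVD cell held between 4226 and 9889 UMIs. The IVD class expressed its defining genes in every library, such as Acan (1705 to 4107 CPM, UMIs scaled to 1000000 per cell) and Comp (3667 to 9341 CPM). The 5 markers of the class did not keep their level over time, with a sum of 17210 to 28739 CPM at 2 weeks and 9031 to 13591 CPM at 8 weeks, and Col2a1 alone was 4506 to 14680 and 602 to 2964 CPM. Markers of other cells were also read in the IVD class. The 4 myeloid markers summed to 21.5 to 97.8 CPM, of which Cd14 made up 17.8 to 92.7 CPM, and Cd68, Mrc1 and Lyz2 were each at most 11.1 CPM. Of 8 erythroid markers 4 were listed, with a sum of 1.81 to 3023 CPM that was highest in CON rat 5 (3023), LDP rat 4 (1375) and LDP rat 5 (1374). The 4 listed of 6 granulocyte markers summed to 0.914 to 101 CPM. CON rat 2 carried 7788 CPM of 7 immediate early genes, against 1299 to 3693 CPM in the others. In CON rat 3 the IVD class carried the endothelial genes Cdh5 and Plvap at 47.4 and 50.8 CPM, against at most 9.32 and 12.4 CPM elsewhere. The LDP libraries of rats 3 and 4 and the CON library of rat 6 carried 33.2, 14.5 and 18.8 CPM of 4 lymphoid markers, against at most 6.84 CPM in the rest. Any pair of libraries shared at most 0.720% of the barcodes of the smaller library.

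The metallothionein genes are shown with the sequence before their start sites, since Mt1 and Mt2A moved together across libraries and lie near each other and Mt3 on 1 chromosome. The 250 bases before each start are from RefSeq promoter entries of build GRCr8, where all 3 genes are on the minus strand. Capitals mark the matches on either strand to TGCACNC or TGCGCNC, the core of the metal response element. Entries were found for 7 of the 9 members, and none was matched for Hmox1 and Sod3.
Mt1, chr19:10832976-10833225: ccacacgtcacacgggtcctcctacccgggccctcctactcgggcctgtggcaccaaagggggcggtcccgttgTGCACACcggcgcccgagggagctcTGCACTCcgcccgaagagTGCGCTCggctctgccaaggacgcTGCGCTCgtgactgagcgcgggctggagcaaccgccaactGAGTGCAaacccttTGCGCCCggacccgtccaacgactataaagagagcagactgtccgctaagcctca
Mt2A, chr19:10838709-10838958: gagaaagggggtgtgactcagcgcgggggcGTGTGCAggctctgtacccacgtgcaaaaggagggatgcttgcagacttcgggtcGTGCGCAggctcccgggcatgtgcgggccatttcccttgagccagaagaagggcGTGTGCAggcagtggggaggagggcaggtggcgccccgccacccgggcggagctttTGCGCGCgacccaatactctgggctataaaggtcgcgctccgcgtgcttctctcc
Mt3, chr19:10856081-10856330: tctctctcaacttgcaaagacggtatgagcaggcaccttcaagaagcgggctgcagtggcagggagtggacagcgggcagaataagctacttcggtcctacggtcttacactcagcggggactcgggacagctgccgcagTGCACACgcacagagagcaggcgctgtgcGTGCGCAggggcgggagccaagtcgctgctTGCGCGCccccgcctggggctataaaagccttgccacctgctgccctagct

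Mt1 held 6 matches, Mt2A 4 and Mt3 3. Of all 33469 promoter windows of this length, 20.6% held at least 1 match, 1.17% at least 3 and 0.266% at least 4. The windows of Nqo1, Gpx2, Gpx3, Sod2 and Txnrd1 held 0. TGACNNNGC, the core of the antioxidant response element that NRF2 binds, had 1 match each before Mt1, Mt2A, Gpx2, Sod2 and 1 of the 2 Txnrd1 starts, and 10.1% of all windows held at least 1. A match is a run of letters and not a bound site.

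The 9 genes fell into 3 patterns over the authors' cell classes, which are described here without a test. Gpx2, an epithelial-type glutathione peroxidase, and Gpx3, the secreted peroxidase, were highest in IVD cells, as were Sod3, the extracellular superoxide dismutase, Mt1 and Mt2A. Gpx2 averaged 41.6 ± 17.4 CPM (SD, n = 16 libraries) in IVD cells, 2.72 ± 2.37 CPM (n = 12) in endothelial and 2.60 ± 2.16 CPM (n = 15) in myeloid cells. Gpx3 averaged 658 ± 161 CPM in IVD and 103 ± 40.8 CPM in endothelial cells, and Sod3 390 ± 66.9 and 59.8 ± 33.4 CPM. Each of these 5 genes was lower in the endothelial, myeloid and lymphoid class than in the IVD class of every library that held at least 20 cells of the class. A further class carries no name in the files and is not drawn with the classes. At 2 weeks it held 100 to 730 cells in CON and 23 to 304 cells in LDP libraries. Its Gpx2 was 3.81 to 7.69 CPM in CON and 17.2 to 71.1 CPM in LDP, its Mt1 218 to 299.7 and 471 to 1303 CPM, and its Mt2A 276 to 464 and 379 to 1496 CPM (n = 4 libraries each), values that are given without a test. At 8 weeks its groups overlapped in all 3 genes, and Mt2A was 500.3 ± 103 CPM in CON and 256 ± 121 CPM in LDP (SD, n = 4). Its Gpx3 at 2 weeks was 149 ± 89.5 CPM in CON and 341 ± 227 CPM in LDP. The paper clustered the groups separately, so this class need not hold the same cells in CON and LDP or at both times.

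Hmox1, Nqo1 and Txnrd1 were higher in myeloid and endothelial than in IVD cells. Lymphoid cells were lower for Hmox1 and near IVD cells for Txnrd1. For Nqo1 their mean was lower, but the spreads overlapped (21.2 ± 19.9 CPM in lymphoid cells). Hmox1, the heme-degrading enzyme, averaged 4072 ± 1567 CPM (SD, n = 15) in myeloid cells, 3699 ± 1478 CPM (n = 12) in endothelial cells, 2011 ± 754 CPM (n = 16) in IVD cells and 231 ± 128 CPM (n = 11) in lymphoid cells. Myeloid and endothelial cells did not differ beyond this spread. Nqo1, a quinone reductase, was 544 ± 319 CPM in myeloid cells and 31.5 ± 9.63 CPM in IVD cells. Txnrd1, the cytosolic thioredoxin reductase, was 949 ± 459 CPM in myeloid cells and 160 ± 34.8 CPM in IVD cells. All 3 were higher in myeloid than in IVD cells in 15 of 15 libraries, and in lymphoid cells they were above IVD cells in 0 (Hmox1), 3 (Nqo1) and 7 (Txnrd1) of 11 libraries.

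Sod2, the mitochondrial superoxide dismutase, lay between these patterns, with 746 ± 125 CPM in IVD, 697 ± 175 CPM in endothelial and 1249 ± 827 CPM in myeloid cells. In myeloid cells at 8 weeks Sod2 was 2485 ± 1246 CPM (SD, n = 3) in LDP and 858 ± 282 CPM (n = 4) in CON libraries. It was higher in LDP in 3 of 3 rats with enough cells, and the myeloid class held only 31 to 147 cells in those CON and 34 to 141 cells in those LDP libraries. At 2 weeks myeloid Sod2 was higher in LDP in 3 of 4 rats. Myeloid Hmox1 and Txnrd1 at 8 weeks were also higher in LDP in 3 of 3 rats (means of 0.77 and 0.63 on the log2 scale). The other members were higher there in 1 or 2 of 3 rats.

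**Figure D1:**
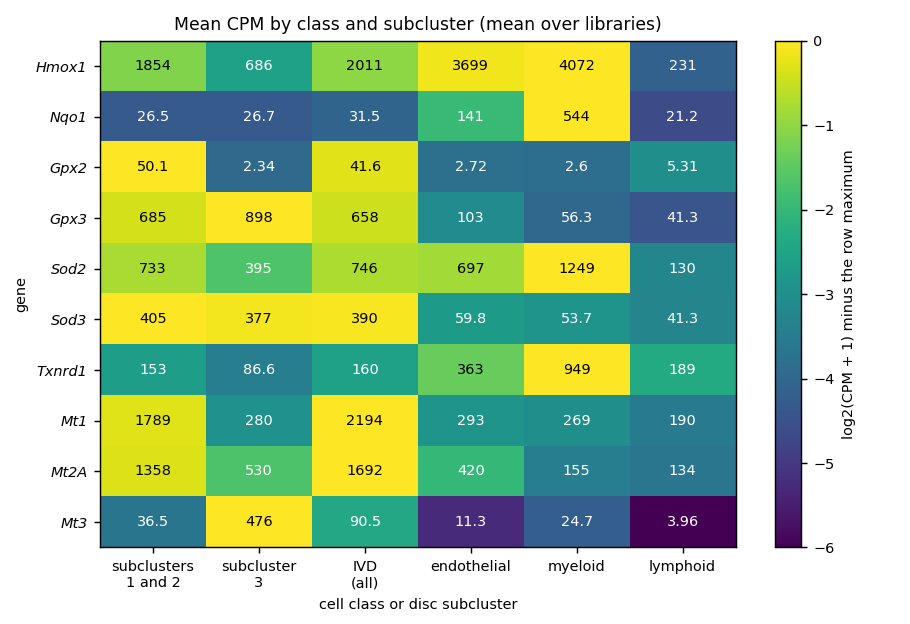
Mean CPM of each gene by cell class (columns) as the mean over libraries, written in each cell; the colour is log2(CPM + 1) minus the highest value of the row. The subcluster columns cover the 8 libraries of 2 weeks and the class columns up to 16 libraries of both times; among the columns drawn, Gpx2, Mt1 and Mt2A are lower in subcluster 3 and in the endothelial, myeloid and lymphoid classes than in subclusters 1 and 2, whereas Mt3 is highest in subcluster 3.

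The disc subclusters are given for the 2-week libraries only, by the codes 1, 2 and 3. Code 3 carried the outer annulus genes Lum (730 to 2447 CPM) and Myoc (408 to 975 CPM), which were at most 127 and 61.8 CPM in codes 1 and 2, and is called the outer annulus here. Codes 1 and 2 carry no name in the files and were close in Gpx2 and Mt1 levels (Gpx2 47.3 ± 14.5 and 51.9 ± 22.2 CPM, Mt1 1843 ± 963 and 1730 ± 831 CPM, SD, n = 8), so they were joined as inner cells. The outer annulus held 9424 cells and the inner subclusters 70258.

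Gpx2 was far higher in inner cells in all 8 libraries, with 32.7 to 75.3 CPM there and 0.275 to 4.39 CPM in the outer annulus. The difference of outer from inner cells was −3.98 ± 0.52 on the log2 scale (SD, n = 8 libraries). Mt1 differed by −2.59 ± 0.41, Mt2A by −1.33 ± 0.40, Sod2 by −0.88 ± 0.34 and Txnrd1 by −0.80 ± 0.43, each lower in the outer annulus in 8 of 8 libraries. Hmox1 differed by −1.36 ± 0.81 and was lower in 7 of 8. Gpx3 (0.37 ± 0.51), Sod3 (−0.11 ± 0.17) and Nqo1 (−0.092 ± 0.43) had no common direction. Mt3, the metallothionein known from brain, had the opposite distribution to Mt1 and Mt2A, with 119 to 843 CPM in the outer annulus and 13.7 to 64.8 CPM in inner cells.

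Shares of IVD cells with a UMI were compared at an equal depth of 1000 UMIs per cell, which left out 883 IVD cells. At this depth 64.6 ± 9.69% of IVD cells (SD, n = 16) held a UMI of Hmox1, 57.9 ± 9.51% one of Mt1, 59.2 ± 9.64% one of Mt2A and 3.24 ± 1.27% one of Gpx2. For the other members the shares were 38.6 ± 6.88% (Gpx3), 44.9 ± 5.05% (Sod2), 29.4 ± 4.19% (Sod3), 13.8 ± 2.74% (Txnrd1) and 2.87 ± 0.779% (Nqo1). With all UMIs the shares of the first 4 were 90.6%, 86.2%, 88.7% and 12.1%. In lymphoid cells, taken as the background of free RNA, the shares of these 4 at 1000 UMIs were 17.8 ± 10.2%, 16.3 ± 6.10%, 10.7 ± 8.24% and 0.525 ± 1.06% (SD, n = 11), with a median of 1319 to 5296 UMIs per lymphoid cell. The Gpx2 value rested on LDP rat 2 with 25 lymphoid cells (3.65%), and without that library it was 0.213%. For Gpx3, Sod2 and Sod3 the lymphoid shares were 3.29%, 12.1% and 3.82%. For Nqo1 the lymphoid share was 1.97 ± 2.01% and for Txnrd1 15.4 ± 8.45% (SD, n = 11). The lymphoid share of Txnrd1 exceeded its 7.62 ± 1.56% in the outer annulus (n = 8), so it is not a background for this gene, and no background is given for the IVD share of Txnrd1. The IVD share of Nqo1 lay within the spread of its lymphoid share. That spread rested on LDP rat 2 (5.77%, 25 lymphoid cells) and CON rat 7 (5.74%, 33 cells). In the other libraries the IVD share was above the lymphoid share, except in CON rat 1 (2.13% against 2.42%, 91 lymphoid cells). In LDP rat 3, with 2781 lymphoid cells, it was 1.93% against 0.466%. The outer annulus share of Gpx2, 0.233%, and that of Mt1, 18.3%, were close to the lymphoid shares. The outer annulus shares of Mt2A, 32.2%, and Hmox1, 30.2%, lay above them. Whether lymphoid cells express these genes themselves was not tested. The 10% of IVD cells with the highest level carried 38.0% to 51.8% of the summed Mt1 CPM of a library, and similar parts of Mt2A (31.1% to 44.7%), Gpx3 (33.9% to 47.5%) and Hmox1 (28.9% to 47.0%). Across IVD cells Mt1 and Mt2A correlated in each of the 16 libraries (r on log2 values from 0.34 to 0.56, a description, since cells share library and depth).

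Puncture was compared within rats in IVD cells. Gpx2 was the only member to pass the test. In CON discs at 2 weeks Gpx2 was 33.4, 32.2, 34.4 and 29.7 CPM in rats 1 to 4, and in LDP discs of the same rats it was 42.5, 63.6, 58.2 and 60.1 CPM. The groups did not overlap at 2 weeks, which held for 7.17% of the 11150 genes tested. In CON discs at 8 weeks Gpx2 was 26.2, 45.8, 19.3 and 22.6 CPM in rats 5 to 8, and in LDP discs it was 52.6, 82.1, 31.6 and 31.2 CPM. These groups overlapped because rat 6 was high in both libraries, but LDP was above CON in 8 of 8 rats, as for 3.59% of all genes tested.

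Averaged over both times the change of Gpx2 was 0.75 ± 0.10 on the scale of log2(CPM + 1) (limma, SE, adjusted p = 0.0070), or 1.68-fold. At this threshold, an adjusted p below 0.05, 7.80% of all genes passed in either direction and 2.08% passed as higher in LDP. The median of all genes was −0.12, so Gpx2 moved against it. At 2 weeks the change was 0.76 ± 0.14 (limma, adjusted p = 0.087) and at 8 weeks 0.73 ± 0.14 (adjusted p = 0.064), and neither passed alone. Only 0.179% of genes passed at 2 weeks and 0.269% at 8 weeks. The difference between the times was −0.024 ± 0.20 (adjusted p = 1.00), and 0% of genes passed in that comparison by limma, with 186 at an unadjusted p below 0.05, and 12 genes passed by DESeq2. For the other members the difference between the times ran from −0.46 ± 0.55 (Mt1) to 0.21 ± 0.30 (Hmox1).

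**Figure D2:**
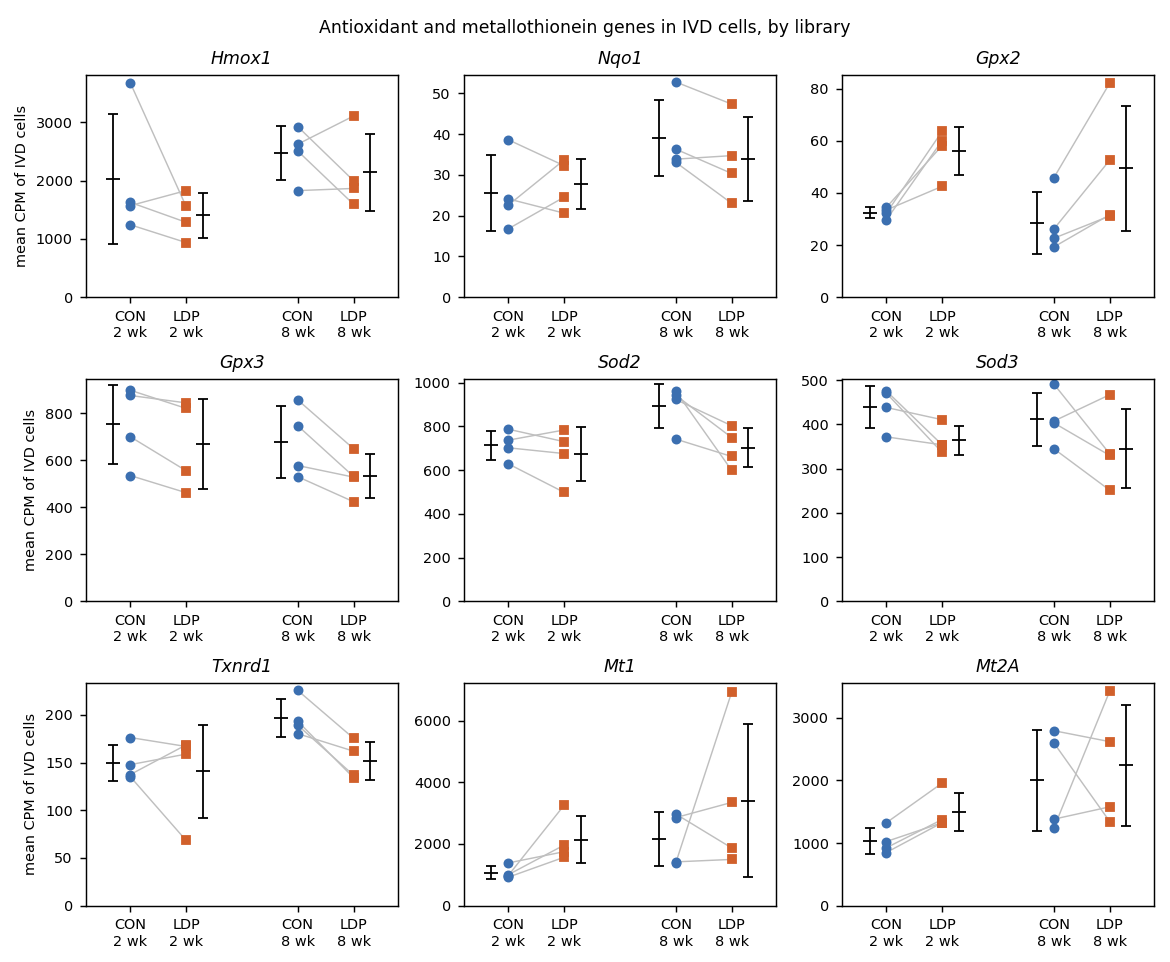
Mean CPM of IVD cells (y axis, linear from 0) for each of the 9 genes in CON (circles) and LDP (squares) libraries at 2 and 8 weeks; grey lines join the libraries of a rat, and black bars are the group mean ± SD (n = 4). LDP lies above CON for Gpx2 and below it for Gpx3 in all 8 rats, while Mt1 and Mt2A lie higher in LDP in all 4 rats at 2 weeks and go both ways at 8 weeks.

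The outer annulus, where Gpx2 was low, was also read by its marker genes. The summed level of 5 outer annulus markers in IVD cells was 1647 to 2862 CPM in CON and 893 to 1640 CPM in LDP at 2 weeks, and 877 to 1570 CPM in CON and 387 to 848 CPM in LDP at 8 weeks. All 5 were detected, and neither time showed an overlap, as for 7.17% of all genes at 2 weeks and 13.9% at 8 weeks. At 2 weeks the gap was only between 1647 and 1640 CPM, the CON and LDP libraries of rat 2. In rat 6 the sum was 945 CPM in CON and 848 CPM in LDP. By the codes of the files, the outer annulus made up 9.28% to 14.6% of IVD cells in CON and 6.29% to 16.4% in LDP at 2 weeks. From CON to LDP this part was lower in rat 1, almost equal in rat 3 and higher in rats 2 and 4. The markers also differed within the codes. Igfbp5 was lower in LDP in code 1, code 2 and the outer annulus of each of these rats. In the outer annulus Myoc was lower in LDP in each rat, whereas Fibin went both ways. The marker sum is therefore no measure of the number of outer annulus cells alone. Within inner cells alone Gpx2 was higher in LDP in 4 of 4 rats, by 0.76 ± 0.39 (SD, n = 4) on the log2 scale, with 32.7 to 38.9 CPM in CON and 45.2 to 75.3 CPM in LDP. Outer annulus markers differed in these cells too. In code 2 Lum was 50.1 to 127 CPM in CON and 6.23 to 34.9 CPM in LDP. Igfbp5 there was 339 to 700 and 113 to 155 CPM, while Fibin overlapped. Their part in the Gpx2 change was not tested. By code, the Gpx2 change was 0.46 ± 0.50 in code 1 (3 of 4 rats, lowest −0.23) and 1.07 ± 0.45 in code 2 (4 of 4 rats). CON and LDP libraries carry the codes under separate labels, so a code need not hold the same cells in both. Acan was higher in code 1 than in code 2 in each CON library and lower in each LDP library. Fitted across all genes on codes 1 and 2 alone, the 2-week change kept its size (0.76) and, as in all IVD cells, did not pass (limma, adjusted p = 0.32). That fit used only the 8 libraries of 2 weeks. The fit on all IVD cells took its spread from 16, so the adjusted p values of the fits are not alike in power. In that fit 0% of 10903 genes passed, with 1229 at an unadjusted p below 0.05. At 8 weeks no subcluster codes are given, and the part of the outer annulus in the result was not tested there. The share of IVD cells with a Gpx2 UMI at 1000 UMIs moved as the level did, from 2.76 ± 0.21% in CON to 4.62 ± 0.70% in LDP at 2 weeks and from 2.07 ± 0.80% to 3.53 ± 1.47% at 8 weeks (SD, n = 4). The lymphoid share of Gpx2 was 0.330% to 3.65% in 3 LDP libraries of 2 weeks, and since only 1 CON library of 2 weeks held lymphoid cells, a change of this background at 2 weeks was not tested. At 8 weeks it was at most 0.509% in CON and 0.101% in LDP.

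The 2 inducible metallothioneins were higher in LDP discs at 2 weeks in 4 of 4 rats, without passing the test. Mt1 was 1385, 923, 1003 and 977 CPM in CON discs of rats 1 to 4 and 1750, 1570, 1963 and 3256 CPM in LDP discs. Mt2A was 1323, 923, 848 and 1023 CPM in CON and 1957, 1375, 1325 and 1324 CPM in LDP. The groups did not overlap for either gene, although for Mt2A the highest CON and the lowest LDP library were 1323 and 1324 CPM, and 7.17% of all genes had groups that did not overlap at 2 weeks. The changes were 0.95 ± 0.39 for Mt1 (limma, SE, adjusted p = 0.39) and 0.54 ± 0.28 for Mt2A (adjusted p = 0.47).

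At 8 weeks the rats disagreed. Mt1 was 2971, 2855, 1391 and 1420 CPM in CON discs of rats 5 to 8 and 1871, 3347, 6917 and 1499 CPM in LDP discs. Mt2A was 2598, 2792, 1239 and 1381 CPM in CON and 1343, 2617, 3424 and 1577 CPM in LDP. Both genes were lower in LDP than in CON in rat 5 (−0.67 and −0.95 on the log2 scale) and far higher in rat 7 (2.31 and 1.47). The change at 8 weeks was 0.49 ± 0.39 for Mt1 (limma, adjusted p = 0.46), and without rat 7 it was −0.12. For Mt2A it was 0.15 ± 0.28 (adjusted p = 0.76), and −0.28 without rat 7. Over both times neither passed (Mt1 0.72 ± 0.27, adjusted p = 0.11; Mt2A 0.35 ± 0.20, adjusted p = 0.25). In inner cells at 2 weeks Mt1 was higher in LDP by 0.96 ± 0.66 and Mt2A by 0.56 ± 0.13 (SD, n = 4 rats, 4 of 4 for both). Blood markers in IVD cells differed among these libraries. LDP rat 4, the highest Mt1 library of 2 weeks, held 1375 CPM of erythroid markers against 1.81 to 464 CPM in the other 2-week libraries. LDP rat 7, the highest of 8 weeks, held 355 CPM, and the other 8-week libraries held 7.62 to 3023 CPM. LDP rat 5, with Mt1 at 1871 CPM, held 1374 CPM, and LDP rat 6, with Mt1 at 3347 CPM, held 31.1 CPM. Their part in the result was not tested.

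Mt3, taken from the list of metal and iron genes, went the other way. It was lower in LDP in 8 of 8 rats (8.30% of all genes), at 57.5 against 123 CPM on average, a change of −1.14 ± 0.21 (limma, SE, adjusted p = 0.019). Mt3 hardly moved in rat 2 (103 to 96.7 CPM) and rat 6 (83.6 to 77.8 CPM), and by −1.09 to −1.98 on the log2 scale in the other rats. Its adjusted p was 0.054 without rat 3 and 0.056 without rat 7. Since Mt3 is highest in the outer annulus, the marker levels above apply to it as well. Within the 2-week subclusters Mt3 was lower in LDP by 1.05 ± 0.85 in inner cells (3 of 4 rats) and by 1.03 ± 0.74 in the outer annulus (4 of 4 rats).

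**Figure D3:**
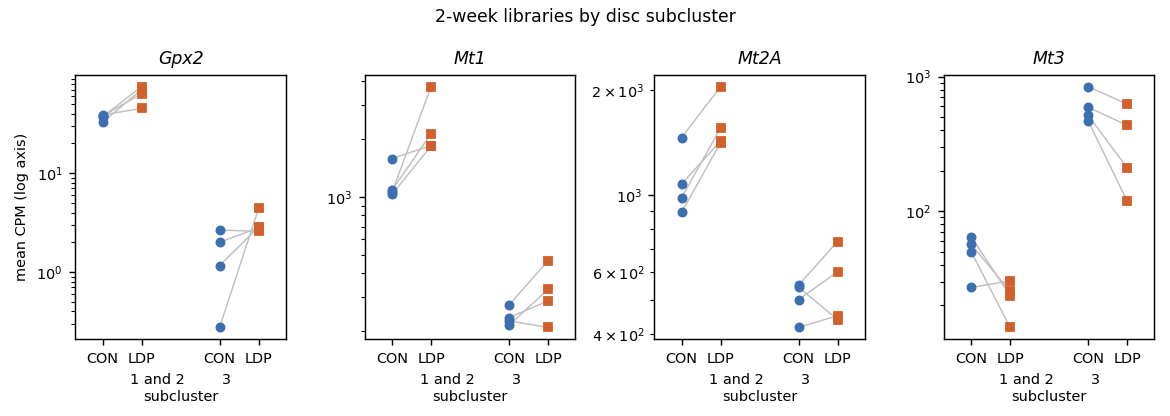
Mean CPM (log axis) of 4 genes in inner cells (subclusters 1 and 2) and the outer annulus (subcluster 3) of the 2-week libraries, CON as circles and LDP as squares, with lines joining the libraries of a rat. Gpx2, Mt1 and Mt2A lie higher in inner cells, and there LDP is above CON in every rat, and Mt3 lies higher in the outer annulus.

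Gpx3, Sod3 and Sod2 were lower in most LDP libraries, by small amounts that did not pass. Gpx3 was lower in LDP in 8 of 8 rats, as for 8.30% of all genes tested, with 535 to 898 CPM in CON and 462 to 844 CPM in LDP at 2 weeks and 530 to 856 and 424 to 649 CPM at 8 weeks. The groups overlapped at both times, and the mean change of −0.26 ± 0.072 gave an adjusted p of 0.054 (limma). Sod3 changed by −0.27 ± 0.099 (adjusted p = 0.10, lower in 7 of 8 rats) and Sod2 by −0.22 ± 0.083 (adjusted p = 0.11, lower in 7 of 8 rats). With libraries centred on their median gene these changes were smaller, at −0.12 for Gpx3 (adjusted p = 0.37), −0.13 for Sod3 and −0.085 for Sod2. For Sod2, CON libraries of 8 weeks were at 742 to 961 CPM and LDP libraries at 600 to 803 CPM.

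Of the NRF2-linked members, Hmox1, Txnrd1 and Nqo1 did not pass the test, unlike Gpx2. Hmox1 changed by −0.34 ± 0.15 (limma, adjusted p = 0.16) and was lower in LDP in 5 of 8 rats. CON rat 2, the library with the highest immediate early genes, held 3680 CPM of Hmox1 against 1243 to 1627 CPM in the other CON libraries of 2 weeks. Without rat 2 the change was −0.20 over both times (adjusted p = 0.31), and at 2 weeks it was −0.18 in place of −0.44. Txnrd1 changed by −0.27 ± 0.13 (adjusted p = 0.18). At 8 weeks its groups did not overlap, with 180 to 226 CPM in CON and 134 to 175 CPM in LDP, as for 13.9% of all genes. At 2 weeks LDP rat 4 was low at 68.4 CPM, and without that rat the change turned from −0.16 to 0.11. That library also held 1375 CPM of erythroid and 96.4 CPM of granulocyte markers, whose part was not tested. By subcluster at 2 weeks, Txnrd1 differed by −0.22 ± 0.57 in inner cells (SD, higher in LDP in 2 of 4 rats) and by 0.45 ± 0.34 in the outer annulus (4 of 4 rats), and Hmox1 by −0.51 ± 0.59 (1 of 4 rats) and 0.51 ± 0.68 (3 of 4 rats). The difference between the subclusters was not tested. Nqo1 changed by −0.033 ± 0.12 (adjusted p = 0.87), a sign that turns positive when libraries are centred on their median gene (0.11). Of the 9 members 3 had a change above 0 over both times, with a median of −0.22 against −0.12 for all genes.

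**Figure D4:**
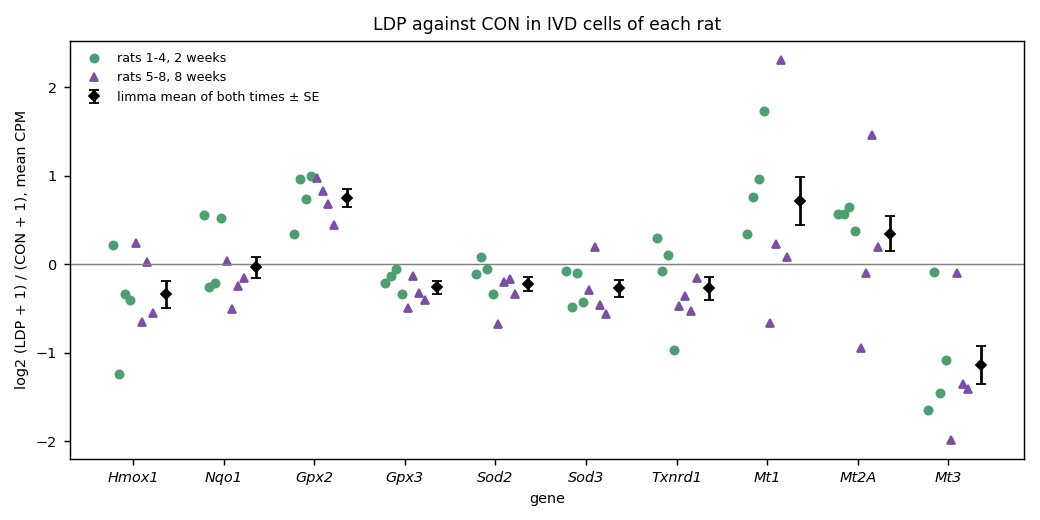
Log2 ratio of LDP to CON mean CPM (1 added to each) in IVD cells of each rat (points) for the 9 genes and Mt3, with the limma mean of both times ± SE (diamonds). All 8 Gpx2 points lie above 0 and all 8 Gpx3 and Mt3 points below it, and Mt1 and Mt2A spread from −0.67 to 2.31 and from −0.95 to 1.47.

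Time was compared between rats, separately in CON and LDP discs. By limma no member passed in either, with 4 members at an unadjusted p below 0.05 in CON (Mt1, Mt2A, Nqo1 and Sod2) and 0 in LDP discs, while 8.40% of all genes passed in CON and 14.6% in LDP discs. DESeq2 called Sod2 (0.40, adjusted p = 0.018) and Mt2A (0.92, adjusted p = 0.022) in CON discs, and edgeR called 0 members. In CON discs Mt2A was 2003 ± 806 CPM at 8 weeks and 1029 ± 208 CPM at 2 weeks (SD, n = 4), a change of 0.89 ± 0.30 (limma, SE, adjusted p = 0.079). Mt1 changed by 0.93 ± 0.39 (adjusted p = 0.15), and its groups did not overlap, by the small gap between 1385 and 1391 CPM. Txnrd1 did not overlap either (135 to 176 against 180 to 226 CPM, adjusted p = 0.28), and 24.0% of all genes had groups that did not overlap in CON discs. Nqo1 was 25.5 ± 9.28 CPM at 2 and 39.0 ± 9.28 CPM at 8 weeks (adjusted p = 0.13), and Sod2 was 714 ± 66.5 and 892 ± 101 CPM (adjusted p = 0.19). Among CON libraries of 8 weeks, rats 5 and 6 held the high Mt1 and Mt2A levels, and rats 7 and 8 lay near the 2-week values. Rats 5 and 6 also held more erythroid markers in IVD cells (3023 and 589 CPM, against 168 and 7.62 CPM in rats 7 and 8) and more lymphoid markers (6.84 and 18.8 against 0.843 and 0.725 CPM), and the part of these cells in the levels was not tested. Markers of the disc itself also differed between the times in CON discs without overlap. The outer annulus sum was 1647 to 2862 CPM at 2 weeks and 877 to 1570 CPM at 8 weeks, and the sum of the 5 IVD markers 19557 to 28739 and 9031 to 13591 CPM. Their part in the time differences was not tested. In LDP discs Hmox1 had the largest change among the members, 0.61 ± 0.30 (adjusted p = 0.18), from 1403 ± 381 to 2141 ± 666 CPM. In LDP discs the groups of all 9 members overlapped, whereas 15.8% of all genes had groups that did not overlap.

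The wider pathway lists were read beside the members. Over both times 2.08% of all genes passed as higher and 5.72% as lower in LDP, and of the 79 listed genes tested 4 were higher and 9 lower. These calls were not stable. With all cells in place of IVD cells 0 listed genes passed, and 0 passed without rat 3 or without rat 7. Of 13 other peroxide and superoxide enzymes, 2 rose and 0 fell with puncture over both times (limma). They were Gpx1, the common cytosolic glutathione peroxidase, at 304 ± 75.2 against 225 ± 31.6 CPM (SD, n = 8; 0.42 ± 0.10, SE, adjusted p = 0.037), and the peroxiredoxin Prdx1 (0.34 ± 0.091, adjusted p = 0.048), each higher in LDP in 8 of 8 rats. The median of this list was 0.087 against −0.12 for all genes. Of 19 tested genes of NRF2 and glutathione, 0 rose and 6 fell, with a median of −0.012. The largest falls were in Gsta1, a glutathione transferase (−1.02 ± 0.26, adjusted p = 0.044, at 4.67 against 8.65 CPM), and Gclc, the catalytic subunit of the enzyme that starts glutathione synthesis (−0.50 ± 0.10, adjusted p = 0.024, lower in 7 of 8 rats).

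Of 11 tested metal and iron genes, Mt3 fell and the copper chaperone Atox1 rose (0.49 ± 0.11, limma, adjusted p = 0.031). Of 12 tested thioredoxin and glutaredoxin genes, 0 passed, with a median of 0.077. Of 10 genes responsive to NF-kB, 1 rose, the iron-siderophore binder Lcn2 (0.96 ± 0.22, adjusted p = 0.034), and 2 fell, Tnfaip3 and Icam1. Lcn2 was higher in LDP in 7 of 8 rats, with a wide spread (35.4 ± 41.1 against 14.3 ± 9.15 CPM, SD). None of 7 glucocorticoid-responsive genes passed (median −0.23), nor did any of 7 immediate early genes, although all 7 had a change below 0 (median −0.50). The rats disagreed in the sum of these immediate early genes. It was lower in LDP in rats 1 to 6, most in rat 2 (7788 to 2304 CPM). In rats 7 and 8 it was higher (2194 to 3422.5 and 2954 to 3599 CPM). At 2 weeks and at 8 weeks taken alone, 0 listed genes passed by limma (18 and 22 at an unadjusted p below 0.05) or by edgeR, and 3 and 7 passed by DESeq2.

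With time 6 of the 79 listed genes tested passed in CON and 12 in LDP discs, or 7.59% and 15.2%, near the 8.40% and 14.6% of all genes. The largest rise was in Lcn2, by 1.62 ± 0.45 in CON (6.87 ± 3.68 to 21.7 ± 5.88 CPM, SD, n = 4; limma, adjusted p = 0.037) and 1.87 ± 0.45 in LDP discs (adjusted p = 0.012). Sod1, the cytosolic superoxide dismutase, rose from 2 to 8 weeks in CON discs (205 ± 28.5 to 314 ± 17.0 CPM, SD, n = 4; 0.62 ± 0.11, limma, adjusted p = 0.0029) and in LDP discs (0.64 ± 0.11, adjusted p = 0.0013). Gpx7 and Prdx4, peroxidases of the endoplasmic reticulum, fell in both (Gpx7 by 1.05 and 1.19, Prdx4 by 0.53 and 0.65 on the log2 scale). The ferritin heavy chain Fth1 rose and the light chain Ftl1 fell in both (Fth1 0.83 and 0.65, Ftl1 −1.03 and −1.28). Ferritin chains have near-identical copies in the genome, so that their counts are uncertain. In LDP discs Gstm1 rose by 0.73 ± 0.21 and Glrx by 0.62 ± 0.19, whereas Me1 and Mgst3 fell.

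The genes whose levels were most like each member over the 16 libraries were read as a description, since libraries share group and depth. Gpx2 was most like Ciapin1 (r = 0.77) and Metrn (r = 0.72), the lowest likeness of the 9. Mt1 was most like Dapk2 (r = 0.89) and Acot7 (r = 0.87), and Mt2A was most like LOC108348326 (r = 0.89) and Clcf1 (r = 0.88). Hmox1 was most like Srf (r = 0.92), and Sod3 most like Itga10 (r = 0.94). The nearest genes were Siae for Sod2 (r = 0.94), Wars for Txnrd1 (r = 0.92), Tmem202 for Gpx3 (r = 0.87) and LOC100125367 for Nqo1 (r = 0.84). Among the members Mt1 and Mt2A (r = 0.86) and Sod2 and Txnrd1 (r = 0.84) were the closest pairs.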

How the data were processed

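Reads were processed by the authors in Partek (per the labels, with build rn6); the aligner and the handling of doublets are not given in the sources used here, and no doublet caller was run. As deposited, a gene's value in a cell is its CPM plus 1 on a log2 scale. Cell totals were deposited in the unit of expected counts (estimated, not always whole), and the percent of mitochondrial reads was given by the authors. Cells held 496 to 3000 genes, 643 to 24072 UMIs and at most 10.1% mitochondrial reads. CPM times the total gave whole numbers, within 0.02, for 99.4% of values above 0.

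The authors' classes and subcluster codes were used as deposited. The paper clustered CON and LDP cells of each time separately, and CON libraries of 8 weeks held 0 endothelial cells. The bounds of a class, also of the IVD class, can therefore differ between the groups compared. The unit was the library: CPM was averaged over the IVD cells of each, and log2(mean CPM + 1) of 11150 genes with a mean of at least 1 CPM was fitted by limma 3.58.1 (R 4.3.3), with the rat as a block for LDP against CON and group means without a block for time, with Benjamini-Hochberg adjustment over all genes and a threshold of 0.05. Fold changes on this scale understate the change of low genes. Rats are separate animals, and numbers pair libraries of 1 animal; their deviations correlated by −0.19 to 0.47. Classes needed 20 cells. edgeR 4.0.16 and DESeq2 1.42.0 were run as alternatives on summed counts. In simulated data on 11150 genes at 2 weeks, 81% of genes changed by 1 on the log2 scale were recovered, and 10 unchanged genes were called. For 8 against 2 weeks in CON discs 73% were recovered, and 11 unchanged genes were called. Genes changed by 2 on the log2 scale were simulated together with these. At 2 weeks more genes were changed than the 20 that passed in the real data. This eases the adjusted threshold, so 81% is not the chance that a member would pass. The changed genes were drawn from those of at least 5 CPM, so these shares do not hold for lower genes. The members and lists were chosen with earlier results of these data known; the outer annulus list and the fit on subclusters 1 and 2 were added after the values were seen. Named genes were all 9 members, up to 2 genes of each list per direction and comparison with the largest change past the threshold, and the genes most correlated with each member. Library totals bound counting error only, which is small beside the spread between rats.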

Additional observations from a re-analysis of the deposited data

Results flagged for a closer look

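In 4 of 36 combinations of a gene and a group of 4 libraries, 1 library lay far from the other 3 by Dixon's test, which chance gives for about 1 in 20. Hmox1 was 3680 CPM in CON rat 2 at 2 weeks, the library that also held 7788 CPM of immediate early genes. Nqo1 was 52.8 CPM in CON rat 8 at 8 weeks. Txnrd1 was 68.4 CPM in LDP rat 4 at 2 weeks. Mt2A was 1957 CPM in LDP rat 1 at 2 weeks, the rat whose CON library was also the highest of its group.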

How the results depend on the processing

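The higher Gpx2 in LDP discs over both times passed in 11 of 11 alternatives (0.61 to 0.93, adjusted p from 2.5e-09 to 0.042, DESeq2, edgeR and limma) and without each rat in turn (0.71 to 0.82, adjusted p from 0.0087 to 0.029). At 2 weeks it passed only by DESeq2 (0.93, adjusted p = 0.00029), and at 8 weeks only by DESeq2 (0.92, adjusted p = 0.00033), in IVD cells without an immune marker UMI (0.70, adjusted p = 0.049) and without rat 4 (0.73, adjusted p = 0.031). Rat 4 is a 2-week rat and enters the 8-week comparison only through the shared spread. Without rats 5, 6, 7 and 8 in turn the 8-week adjusted p of Gpx2 was 0.26, 0.21, 0.21 and 0.11 (limma). Gpx3 over both times passed in IVD cells without an immune marker UMI (−0.26, adjusted p = 0.043), but was −0.12 with centred libraries (adjusted p = 0.37), −0.16 by edgeR (adjusted p = 0.23) and −0.14 by DESeq2 (adjusted p = 0.22). In CON discs with time DESeq2 called Sod2 (0.40, adjusted p = 0.018) and Mt2A (0.92, adjusted p = 0.022). Mt2A also passed without rat 7 (1.09, adjusted p = 0.041), as did Nqo1 without rat 2 (0.84, adjusted p = 0.050). Mt3 over both times did not pass in all cells (−1.03, adjusted p = 0.14). The cause was not tested for any of these.

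Counts of all genes past the threshold depended on the fit. For LDP against CON at 2 weeks 20 became 5 without the replicate block, 2 with a pseudocount of 10, 282 by DESeq2, 0 in all cells, 13 with equal weight of 3 subclusters, 0 in subclusters 1 and 2 alone, and 0 to 7 without a rat. The fits on subclusters used only the 2-week libraries. At 8 weeks 30 became 80 with a pseudocount of 0.1, 577 by DESeq2, 1 in all cells, 128 in IVD cells without an immune marker UMI, and 1 to 567 without a rat. The 567 came without rat 4, a 2-week rat that enters the 8-week comparison only through the shared spread. Without rats 5, 6, 7 and 8 in turn the count was 3, 3, 1 and 6. Over both times 870 became 568 among genes of at least 5 CPM, 1823 by DESeq2, 84 in all cells, and 151 to 787 without a rat. For the difference between the times 0 became 3 without the replicate block, 2 with a pseudocount of 0.1, 12 by DESeq2, 1 in IVD cells without an immune marker UMI, and 0 to 13 without a rat. With time, 937 genes in CON discs became 1487 by DESeq2, 621 in all cells and 318 to 1211 without a rat, and 1630 in LDP discs became 2479, 592 and 835 to 3089. The block changed no call of a member.

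Listed genes past the threshold numbered 3 at 2 weeks and 7 at 8 weeks by DESeq2 (0 by limma), and 0 to 4 at 8 weeks without a rat. The 4 came without rat 4, which has no 8-week library. Over both times 13 became 8 by edgeR, 0 in all cells and 0 to 10 without a rat. With time 6 in CON became 3 in all cells and 3 to 8 without a rat, and 12 in LDP became 5 and 6 to 12.

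Signs turned only in values that did not pass. Nqo1 over both times was 0.018 on summed counts, 0.11 with centred libraries, 0.13 by edgeR, 0.14 by DESeq2 and −0.10 to 0.035 without a rat. In all cells it was −0.15 at 2 weeks, 0.059 at 8 weeks and 0.21 for the difference, where Txnrd1 was 0.11. The difference of Sod3 was 0.014 on summed counts, 0.072 centred, 0.074 by edgeR, 0.079 by DESeq2 and −0.17 to 0.086 without a rat. That of Gpx2 was 0.056 centred and −0.16 to 0.073 without a rat, and that of Hmox1 −0.057 to 0.43. Without a rat, Txnrd1 at 2 weeks ran from −0.32 to 0.11, Mt1 at 8 weeks from −0.12 to 0.87 and Mt2A from −0.28 to 0.52. In LDP discs with time Sod3 was 0.0053 centred, 0.015 by DESeq2 and −0.26 to 0.036 without a rat, Sod2 −0.060 to 0.16 and Txnrd1 −0.12 to 0.31. Shares of cells with a UMI scale with the depth drawn, as for Gpx2 (1.80% at 500 UMIs). Depth limits the outer annulus level of Gpx2, which rests on few UMIs.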
